A study of Mus musculus with 4 samples.

Results

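The genes described here are 33 genes of glucose uptake, glycolysis, lactate export and the response to low oxygen, followed across mouse innate lymphocytes. They were chosen by name and function, from a fixed list of symbols matched to Ensembl identifiers, and all 33 were found among the 30731 genes listed in all 4 deposited count tables. The 4 libraries hold RNA of wild-type cells of 3 kinds. NK cells (1 library) came from the spleens of pooled C57BL/6 mice aged 8 to 12 weeks. Group 2 innate lymphoid cells, or ILC2 (1 library), came from the bone marrow of pooled C57BL/6 mice of the same age range and were expanded with 10 ng/ml of the cytokines IL-25, IL-33, IL-7 and IL-2. MNK-3 (2 libraries) is a cell line with features of group 3 innate lymphoid cells (ILC3), derived from NIH-Swiss thymocytes of fetal day 15 and grown in IL-7 and IL-15 at 10 ng/ml. Cell type, tissue, mouse strain and culture thus changed together and cannot be told apart in any comparison below.

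Glycolysis breaks glucose down to pyruvate in the cytosol. Hexokinase traps glucose in the cell, phosphofructokinase commits it to the pathway, and pyruvate kinase makes the final ATP. Lactate dehydrogenase then turns pyruvate into lactate, which monocarboxylate transporters carry out. The transcription factor HIF-1, whose oxygen-regulated subunit is encoded by Hif1a, raises many of these genes in low oxygen, and cytokine and growth signals can do so as well. Prolyl hydroxylases mark HIF for destruction when oxygen is present. Activated and dividing lymphocytes are known for high glycolysis, and resting ones for low.

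Levels are given as CPM, the reads of a gene per 1000000 reads of the shared genes in the same library. The libraries held 4637812 such reads (NK), 9298162 (ILC2), and 25617762 and 15177345 (MNK-3 replicates 1 and 2). MNK-3 replicate 1 stood apart, with 75.8% of its reads outside genes against 23.1% to 47.1% in the other libraries. Over the 17913 genes under 1 CPM in replicate 2, the log2 ratio of replicate 1 to replicate 2 had a median of 1.90, and over the 2875 genes of 100 CPM or more in replicate 2 its median was -0.29, so that choosing genes by their level in replicate 2 enters both medians. Its T cell markers had a median of 16.6 CPM against 0.889 in replicate 2, its B cell markers 5.84 against 0.165, its myeloid markers 3.81 against 0.0329, and its ILC2 markers 8.41 against 2.24. Most identity markers followed the labels: the 8 NK markers lay between 354.9 and 2286.6 CPM in the NK library, the 8 ILC2 markers had a median of 761.6 CPM in the ILC2 library (with Il17rb at 3.98, and Klrg1 at 20.8 against 89.7 in NK), and 7 of 8 ILC3 markers reached 10 CPM in each MNK-3 library (Il22 did not, at 7.73 and 8.76). In bulk RNA, fewer cells of a type and less RNA per cell cannot be told apart. The labels' protocols call for 2 technical replicates per experiment, and nothing says that the pair of MNK-3 libraries came from separate cultures, so their spread may be technical.

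Most of the 33 genes had their highest level in ILC2. ILC2 was the highest of the 4 libraries for 28 of 33 genes, where 16.0% of all 13151 genes compared had ILC2 on top. For 24 of the 33, ILC2 was at least 2-fold above every other library, a count whose share over all genes was not taken. The summed level of the 33 genes was 17111.4 CPM in ILC2, against 2554.7 CPM in NK, 3936.8 CPM in MNK-3 replicate 1 and 4622.5 CPM in replicate 2. A sum was also taken over 17 enzyme genes from hexokinase to pyruvate kinase, with Pfkfb3 and Pfkfb4 included and lactate dehydrogenase left out. It was 10409.8 CPM in ILC2, 1652.5 CPM in NK, 2716.7 CPM in replicate 1 and 3294.4 CPM in replicate 2 of MNK-3. The exceptions were Pfkm, Pfkfb4, Eno2, Ldhb and Bnip3l, each highest in a MNK-3 library.

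**Figure D1:**
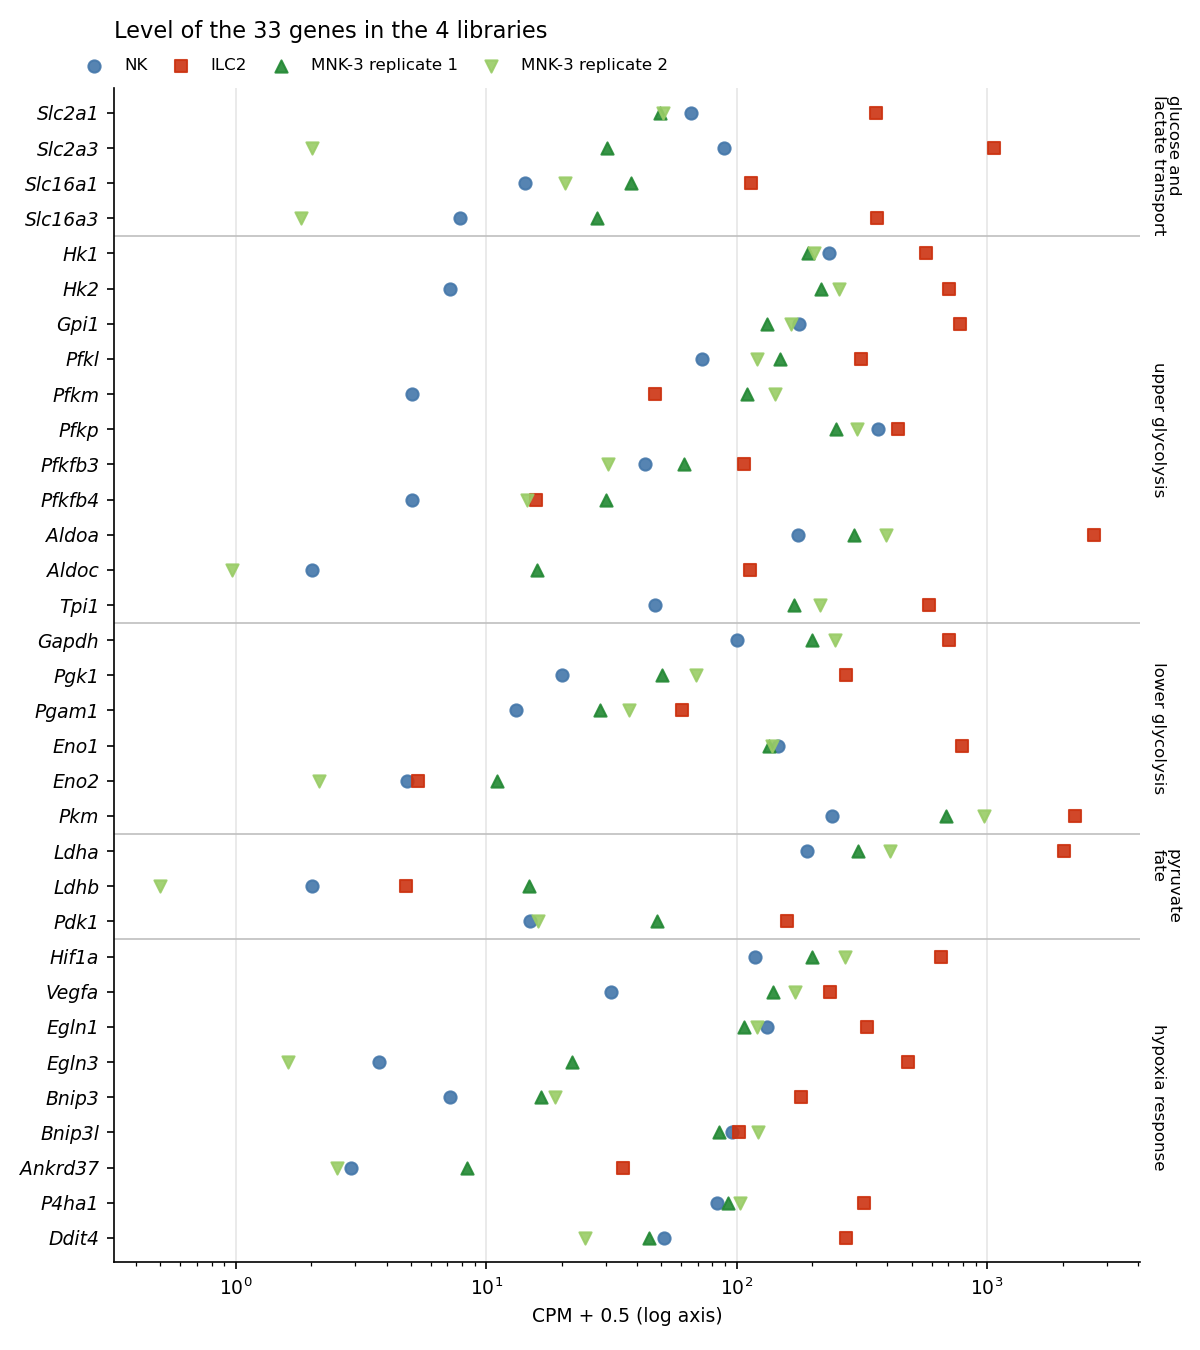
Level of each of the 33 genes as CPM + 0.5 on a log axis (x), 1 row per gene in order of role (y), with a point for each library. The ILC2 squares lie furthest to the right for 28 genes, and MNK-3 replicate 2 lies far left of replicate 1 for Slc2a3, Slc16a3, Aldoc, Ldhb and Egln3.

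Between ILC2 and NK, 29 of 33 genes were at least 2-fold higher in ILC2 at 10 CPM or more, and none was 2-fold lower. Over all genes, 22.1% of the 9795 that reached 10 CPM were 2-fold higher in ILC2 and 16.8% were 2-fold lower. The median log2 ratio of CPM + 0.5 was 2.81 for the 33 genes and 0.07 for all genes at 10 CPM or more. It was -0.26 for all 25283 genes tested in the MNK-3 comparisons, and all 33 lay above that value. With 1 library per cell type this comparison has no test: the intervals given with each fold are exact binomial 95% intervals that cover counting error only. The 4 genes outside the count were Pfkp and Bnip3l, which differed by less than 2-fold, Eno2, at 4.31 CPM in NK and 4.84 CPM in ILC2, and Ldhb, at 1.51 and 4.30 CPM.

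Reads of some of these genes can be shared with copies elsewhere in the genome. With words of 38 bases, the length of a read, 15 of the 33 genes had no word in common with a transcript of another gene. At least 10% of the words were shared for 12 genes. Most of the genes sharing words with each of these were pseudogenes, except for Gpi1, where 4 of 390 were. The share was 83.5% for Gapdh, 75.4% for Eno1, 68.2% for Pgk1, 58.5% for Bnip3, 41.9% for Pgam1 and 40.9% for Pkm, so the counts of these genes, and comparisons of their level with other genes, are uncertain. Of the 15 genes with no shared word, 14 were at least 2-fold higher in ILC2 than in NK (median log2 ratio 2.47), the exception being Pfkp.

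The starts of several of these genes carry letters that HIF is known to recognise, with the core ACGTG or GCGTG. The promoters below are taken from RefSeq (GRCm38.p6, 250 bases before to 50 bases after the start) and are shown because they belong to the 4 genes with the largest ILC2 to NK fold among those with a single promoter in the table (Egln3, Hk2, Slc16a3, Bnip3), to the promoter with the most ACGTG letters among the 33 genes (Ldha), and to a gene whose level hardly differed between ILC2 and NK (Pfkp). Capitals mark ACGTG and GCGTG on either strand, which read CACGT and CACGC when they lie on the other strand. CACGTG holds the letters on both strands and counts as 2. Egln3 lies at chr12:54203825-54204124 on the minus strand, Hk2 at chr6:82774405-82774704 (minus), Slc16a3 at chr11:120948817-120949116 (plus), Bnip3 at chr7:138909457-138909756 (minus), Ldha at chr7:46845554-46845853 (plus) and Pfkp at chr13:6648722-6649021 (minus).
Egln3: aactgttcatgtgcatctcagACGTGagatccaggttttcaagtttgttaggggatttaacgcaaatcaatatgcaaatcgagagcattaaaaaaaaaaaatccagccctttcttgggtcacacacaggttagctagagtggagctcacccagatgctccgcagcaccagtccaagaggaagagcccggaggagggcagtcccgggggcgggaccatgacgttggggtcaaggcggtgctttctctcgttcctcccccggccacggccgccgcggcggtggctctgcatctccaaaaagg
Hk2: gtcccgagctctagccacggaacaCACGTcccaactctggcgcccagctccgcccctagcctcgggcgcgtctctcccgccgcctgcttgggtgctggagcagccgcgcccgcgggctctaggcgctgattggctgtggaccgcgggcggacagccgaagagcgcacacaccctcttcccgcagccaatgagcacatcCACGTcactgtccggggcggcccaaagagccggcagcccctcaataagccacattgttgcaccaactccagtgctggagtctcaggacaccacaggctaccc
Slc16a3: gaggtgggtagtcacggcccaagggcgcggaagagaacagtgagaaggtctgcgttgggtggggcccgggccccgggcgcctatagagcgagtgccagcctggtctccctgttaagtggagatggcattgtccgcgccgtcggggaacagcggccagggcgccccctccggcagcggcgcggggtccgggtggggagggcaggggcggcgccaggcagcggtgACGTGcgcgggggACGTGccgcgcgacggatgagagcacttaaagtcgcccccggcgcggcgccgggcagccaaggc
Bnip3: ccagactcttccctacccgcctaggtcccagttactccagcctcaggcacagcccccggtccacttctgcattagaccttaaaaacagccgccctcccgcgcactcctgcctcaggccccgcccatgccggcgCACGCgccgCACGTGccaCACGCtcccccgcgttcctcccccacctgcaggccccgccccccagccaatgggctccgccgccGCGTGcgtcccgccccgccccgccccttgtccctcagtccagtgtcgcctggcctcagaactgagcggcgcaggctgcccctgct
Ldha: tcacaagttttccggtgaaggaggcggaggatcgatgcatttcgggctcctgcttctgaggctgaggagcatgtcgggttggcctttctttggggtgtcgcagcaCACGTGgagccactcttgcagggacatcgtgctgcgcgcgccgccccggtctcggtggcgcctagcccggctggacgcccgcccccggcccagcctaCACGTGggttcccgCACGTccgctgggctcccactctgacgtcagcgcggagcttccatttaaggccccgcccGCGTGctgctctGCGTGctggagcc
Pfkp: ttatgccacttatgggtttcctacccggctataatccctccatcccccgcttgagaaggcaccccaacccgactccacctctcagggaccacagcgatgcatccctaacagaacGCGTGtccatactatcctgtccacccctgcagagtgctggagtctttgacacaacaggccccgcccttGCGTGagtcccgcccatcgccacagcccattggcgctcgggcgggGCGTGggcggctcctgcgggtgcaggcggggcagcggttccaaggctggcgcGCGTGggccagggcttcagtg

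The Ldha promoter shown held 5 matches to ACGTG and 2 to GCGTG, while another Ldha promoter, not shown, held 0 and 2. Bnip3 held 2 and 3, Hk2 and Slc16a3 held 2 of ACGTG alone, Egln3 held 1, and Pfkp held 4 of GCGTG and no ACGTG. RefSeq promoters were matched for 31 of the 33 genes (not for Slc2a3 and Bnip3l), 45 promoters in all. ACGTG was present in 25 of these 45 (55.6%) and in 6447 of all 32851 promoters of that length (19.6%). GCGTG was present in 26 of 45 (57.8%) and in 10639 of all (32.4%). Genes raised in ILC2 did not all hold ACGTG. Tpi1 and Gpi1, 12.5-fold and 4.38-fold above NK in ILC2, held neither core. Pdk1, 11.0-fold above NK, held no ACGTG. The base composition differed too: the 45 promoters had a median of 20 CG pairs and 62.3% G + C, against 7 pairs and 52.7% over all promoters, and its part in the shares was not tested. A match is a run of letters, not a measured binding site, and many of the 33 genes are listed because they are known to respond to HIF.

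Slc2a1, which encodes GLUT1, the widespread glucose carrier, was at 64.9 CPM in NK, 359.7 in ILC2, and 49.1 and 50.3 in MNK-3. ILC2 was thus 5.54-fold above NK (95% interval 4.92 to 6.26), and both MNK-3 libraries lay slightly below NK. Slc2a3 (ENSMUSG00000003153, chr6:122727809-122801640, minus strand, GRCm38), which encodes the high-affinity carrier GLUT3, was at 88.2 CPM in NK, 1064.9 in ILC2, with 29.8 in replicate 1 and 1.52 in replicate 2 of MNK-3. ILC2 was 12.1-fold above NK (10.9 to 13.4), and Slc2a3 was the only 1 of the 33 genes at least 2-fold lower in MNK-3 than in NK. MNK-3 replicate 1 was 2.96-fold and replicate 2 58.2-fold below NK, and the difference did not pass the test (limma voom log2 fold -2.83, SE 0.99, Benjamini-Hochberg adjusted p = 0.149, both libraries lower).

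The lactate carriers were also highest in ILC2. Slc16a1, which encodes MCT1, was at 13.8 CPM in NK, 114.0 in ILC2, and 37.2 and 20.2 in MNK-3. Slc16a3 (ENSMUSG00000025161, chr11:120948480-120960868, plus strand), which encodes MCT4, the exporter of highly glycolytic cells, was at 7.33 CPM in NK, 363.2 in ILC2, with 27.1 in replicate 1 and 1.32 in replicate 2 of MNK-3. ILC2 exceeded NK 49.5-fold (35.4 to 71.7) for Slc16a3 and 8.26-fold (6.42 to 10.8) for Slc16a1. MNK-3 replicate 1 was above NK for Slc16a3 and replicate 2 below it, so the direction against NK rests on which library is read.

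At the entry to glycolysis, Hk2 separated NK from the other cells. Hk1, the housekeeping hexokinase, was at 232.2 CPM in NK, 569.0 in ILC2, and 192.7 and 202.3 in MNK-3, a range within 3-fold. Hk2 (ENSMUSG00000000628, chr6:82725025-82774454, minus strand), the inducible hexokinase that binds mitochondria, was at 6.68 CPM in NK (31 reads), 702.9 in ILC2, and 216.0 and 255.0 in MNK-3. ILC2 was 105.2-fold above NK (74.0 to 154.9). MNK-3 was 32.3-fold and 38.1-fold above NK in replicates 1 and 2, yet this did not pass the test (limma voom log2 fold 5.09, SE 3.32, Benjamini-Hochberg adjusted p = 1.000). The fit pools the spread over genes, so this SE is not that of the 2 close MNK-3 values of Hk2 alone. Of the reads of both hexokinase genes, Hk2 took 2.80% in NK (95% interval 1.91 to 3.95), 55.3% in ILC2 (54.4 to 56.2), and 52.9% (51.9 to 53.8) and 55.8% (54.6 to 56.9) in MNK-3. Per kilobase of exon the Hk2 shares were 3.95%, 63.8%, 61.6% and 64.3%, and per kilobase of the principal transcript 1.97%, 46.3%, 43.9% and 46.8%, so which hexokinase leads outside NK depends on the length used. These shares do not depend on any scaling between libraries, and no 38-base word of Hk1 or Hk2 was shared with another gene.

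Gpi1, which converts glucose 6-phosphate to fructose 6-phosphate, followed Hk1 rather than Hk2 in its order: 177.5 CPM in NK, 777.9 in ILC2, and 131.5 and 164.2 in MNK-3. Both MNK-3 libraries lay a little below NK for Hk1 and for Gpi1.

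Phosphofructokinase works as a tetramer of subunits from 3 genes, whose shares of reads varied between the libraries. Pfkp, the platelet-type subunit, was the most even of them, at 365.9 CPM in NK, 441.3 in ILC2, and 247.9 and 300.9 in MNK-3. Pfkl, the liver-type subunit, was at 72.4, 312.7, 148.6 and 120.4 CPM in the same order. Pfkm (ENSMUSG00000033065, chr15:98092589-98132451, plus strand), the muscle-type subunit, was at 4.53 CPM in NK, 46.6 in ILC2, and 109.3 and 141.7 in MNK-3. It was the only 1 of the 33 genes at least 2-fold higher in MNK-3 than in ILC2, by 2.35-fold and 3.04-fold in the 2 libraries, and this did not pass the test (limma voom log2 fold 1.38, SE 0.53, Benjamini-Hochberg adjusted p = 0.201). With median-of-ratios scaling it falls under 2-fold.

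Of all phosphofructokinase reads, Pfkm took 1.02% in NK (0.634 to 1.56), 5.82% in ILC2 (5.30 to 6.37), and 21.6% (20.9 to 22.3) and 25.2% (24.2 to 26.1) in MNK-3. These intervals cover counting error only, and those of the 2 MNK-3 libraries do not overlap either. Pfkp took 82.6% in NK, 55.1% in ILC2, and 49.0% and 53.5% in MNK-3, and Pfkl was most prominent in ILC2, at 39.1% against 16.4% in NK and 29.4% and 21.4% in MNK-3. Per kilobase of exon Pfkp led in NK (69.1%), Pfkl in ILC2 (50%) and Pfkm in MNK-3 (44.5% and 51.2%), whereas by reads, or per kilobase of the principal transcript, Pfkp led in every library.

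The enzymes that set the level of fructose 2,6-bisphosphate, the main activator of phosphofructokinase, were low throughout. Pfkfb3, of strong kinase activity, was at 42.7 CPM in NK, 106.0 in ILC2, and 61.0 and 30.2 in MNK-3. Pfkfb4 was at 4.53, 15.3, 29.6 and 14.0 CPM. Its share of the reads of both genes was 9.59% in NK, 12.6% in ILC2, and 32.7% (30.8 to 34.7) and 31.7% (28.2 to 35.4) in MNK-3, so that the pair of MNK-3 libraries gave closely similar shares although both genes were about 2-fold higher in replicate 1.

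Aldolase splits the sugar into 3-carbon pieces, and Aldoa had the highest level per length of the 33 genes in ILC2, at 915.5 CPM per kilobase of exon. It was at 174.7 CPM in NK, 2665.0 in ILC2, and 292.2 and 392.9 in MNK-3. ILC2 exceeded NK 15.3-fold (14.2 to 16.4), and both MNK-3 libraries fell between them. Aldoc, the brain-type form, was at 1.51 CPM in NK (7 reads), 112.7 in ILC2, with 15.5 in replicate 1 and 0.461 in replicate 2 of MNK-3, so that ILC2 was 74.7-fold above NK with a wide interval (36.1 to 186.2). Aldoa made up most of the aldolase reads in every library, the smallest share being 7485 of 7882 reads in MNK-3 replicate 1. Tpi1, which interconverts the 3-carbon products, was at 46.6, 583.7, 168.3 and 214.6 CPM, with ILC2 12.5-fold above NK (10.9 to 14.4) and both MNK-3 libraries more than 3-fold above NK.

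In the lower part of the pathway the main enzyme of each step was highest in ILC2, with MNK-3 between ILC2 and NK for all but enolase. Gapdh, which makes the first energy-rich phosphate and NADH, was at 100 CPM in NK, 704.2 in ILC2, and 199.4 and 246.0 in MNK-3. Pgk1, the first ATP-making step, was at 19.6, 272.0, 49.7 and 68.1 CPM, and Pgam1, a mutase, at 12.7, 59.8, 27.9 and 36.8 CPM. ILC2 exceeded NK 7.04-fold (6.41 to 7.75) for Gapdh, 13.9-fold (11.2 to 17.3) for Pgk1 and 4.70-fold (3.59 to 6.26) for Pgam1.

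Eno1, the main enolase, was at 146.0 CPM in NK, 792.8 in ILC2, and 134.1 and 137.6 in MNK-3. The MNK-3 libraries lay just below NK for this gene, unlike Gapdh, Pgk1, Pgam1 and Pkm. Eno2, the neuronal enolase, was at or under 10.5 CPM in every library. Pkm, pyruvate kinase, was at 240.6 CPM in NK, 2242.9 in ILC2, and 682.7 and 967.8 in MNK-3. It was the only gene of the 33 called between MNK-3 and NK (limma voom log2 fold 1.73, SE 0.35, Benjamini-Hochberg adjusted p = 5.68e-05, both MNK-3 libraries higher, by 2.84-fold and 4.02-fold). That call is lost with TMM (trimmed mean of M values), median-of-ratios or abundant-gene scaling. Counts per gene do not separate the PKM1 and PKM2 isoforms.

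At the fate of pyruvate, Ldha, the subunit that favours lactate, was at 190.6 CPM in NK, 2021.5 in ILC2, and 304.7 and 408.2 in MNK-3. ILC2 was 10.6-fold above NK (9.91 to 11.4). Ldhb, the heart-type subunit, was at 1.51, 4.30 and 14.3 CPM in NK, ILC2 and MNK-3 replicate 1, and had 0 of 6196 lactate dehydrogenase reads in replicate 2, which allows a share of up to 0.0595% by the exact upper limit. Ldha thus held 95.5% or more of the reads of both genes in every library. Pdk1, which holds pyruvate back from the mitochondrion by inhibiting pyruvate dehydrogenase, was at 14.4 CPM in NK, 158.6 in ILC2, with 47.6 in replicate 1 and 15.6 in replicate 2 of MNK-3. ILC2 exceeded NK 11.0-fold (8.59 to 14.2), and MNK-3 replicate 2 was at the level of NK.

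Among the genes of the oxygen response, Hif1a was at 117.9 CPM in NK, 656.2 in ILC2, and 198.5 and 270.8 in MNK-3, with ILC2 5.56-fold above NK (5.10 to 6.08). HIF-1 alpha is known to be controlled chiefly at the level of its protein, which RNA counts do not measure. Egln1, which encodes PHD2, the main oxygen-sensing prolyl hydroxylase, was at 131.7, 330.9, 106.0 and 120.4 CPM. Egln3 (ENSMUSG00000035105, chr12:54178981-54203860, minus strand), which encodes PHD3 and is itself induced by HIF, was at 3.23 CPM in NK (15 reads), 483.0 in ILC2, with 21.4 in replicate 1 and 1.12 in replicate 2 of MNK-3. Its ILC2 to NK fold, 149.3 (90.4 to 267.0), was the largest of the 33 genes. Against NK, MNK-3 replicate 1 was 6.60-fold higher and replicate 2 2.89-fold lower, so the direction is not settled by these libraries. Of the reads of both hydroxylase genes, Egln3 took 59.3% in ILC2 (58.2 to 60.5), 2.40% in NK (1.35 to 3.92), and 16.8% (15.5 to 18.1) and 0.921% (0.538 to 1.47) in MNK-3.

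The other oxygen-response genes were graded rather than all or none. Bnip3 (chr7:138890836-138909519, minus strand), which acts in the removal of mitochondria and is a strong HIF target, was at 6.68 CPM in NK, 179.3 in ILC2, and 16.1 and 18.3 in MNK-3, a 26.8-fold difference between ILC2 and NK (18.8 to 39.6). Its relative Bnip3l was nearly flat, at 95.1, 101.3, 84.8 and 120.6 CPM. Bnip3 therefore took 63.9% of the pair's reads in ILC2 (62.0 to 65.7), against 6.57% in NK (4.51 to 9.19) and 16.0% (14.6 to 17.4) and 13.1% (11.7 to 14.7) in MNK-3, with the reservation that 58.5% of Bnip3 words and 25.9% of Bnip3l words are shared with other loci. Ankrd37, a small ankyrin-repeat gene induced by HIF, was at 2.37, 34.7, 7.85 and 2.04 CPM.

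Vegfa, the angiogenic growth factor, was at 31.0 CPM in NK, 234.9 in ILC2, and 139.6 and 170.5 in MNK-3, which placed MNK-3 within 2-fold of ILC2 and about 5-fold above NK. P4ha1, a collagen prolyl hydroxylase subunit, was at 82.6, 321.1, 91.8 and 103.0 CPM. Ddit4, which encodes REDD1, an inhibitor of mTORC1, was at 50.7, 273.9, 44.2 and 24.4 CPM. For P4ha1 the MNK-3 libraries were close to NK, and for Ddit4 both were below it.

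**Figure D2:**
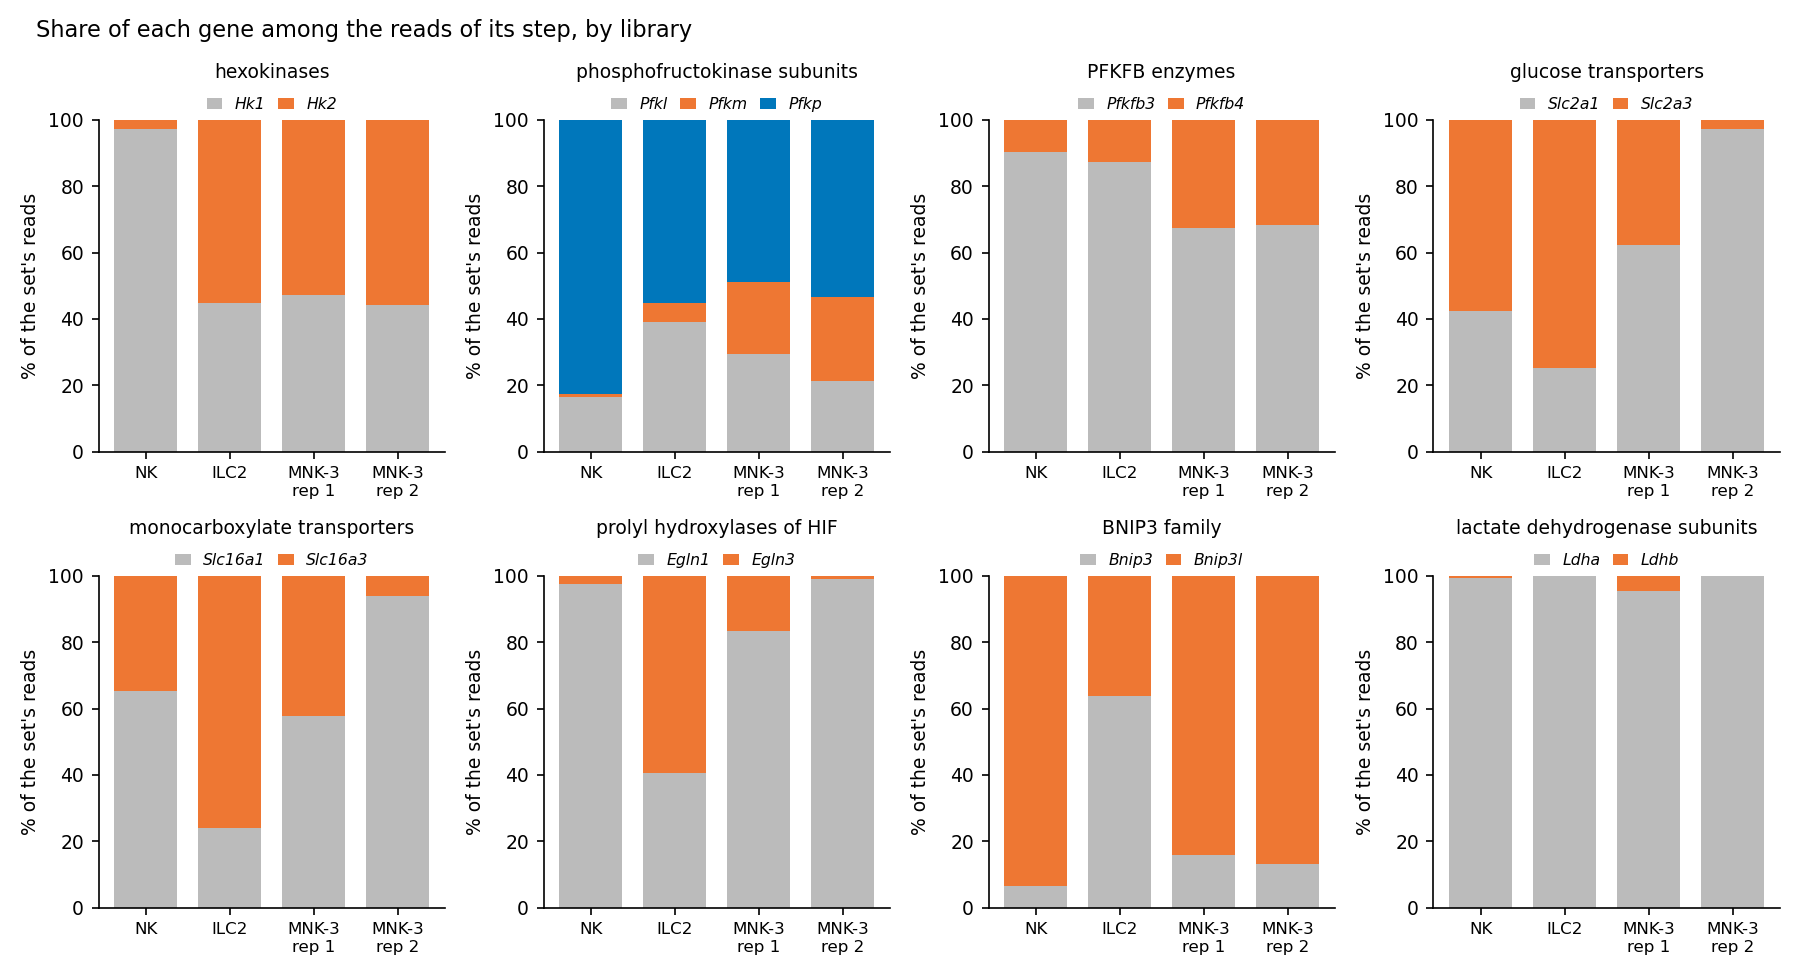
Percent of the reads of each set (y) held by each gene of the set in NK, ILC2 and the 2 MNK-3 libraries (x), for 8 sets of related genes. Hk2 holds 2.80% of hexokinase reads in NK and 52.9% to 55.8% in the other libraries, the share of Pfkm is larger in MNK-3 (21.6% and 25.2%, below Pfkp) than in NK or ILC2, and Slc2a3, Slc16a3, Egln3 and Bnip3 hold their largest shares in ILC2.

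The plot of shares puts these balances side by side. Besides phosphofructokinase, described above, there were 4 sets in which the gene with the most reads per kilobase of exon in ILC2 differed from that in NK and from that in both MNK-3 libraries: Slc2a3 over Slc2a1 (58.9% of the pair per kilobase), Slc16a3 over Slc16a1 (72.6%), Egln3 over Egln1 (66.3%) and Bnip3 over Bnip3l (75.1%). For Slc2a3 the NK order is open to the length used, since by reads it led in NK as well, with 57.6% (53.9 to 61.3). In MNK-3 the shares of Slc2a3 (37.8% and 2.93% of reads), Slc16a3 (42.2% and 6.13%) and Egln3 (16.8% and 0.921%) differed between the 2 libraries far beyond counting error. Those of Hk2, Pfkm, Pfkfb4 and Bnip3 were closer, though for Hk2 and Pfkm the counting intervals of the 2 libraries do not overlap.

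Set against ILC2, MNK-3 had lower levels for most of the 33 genes. Of the 33, 25 were at least 2-fold lower in MNK-3 and 1 was higher (Pfkm), where over all 11253 genes at 10 CPM 10.2% were lower and 32.4% higher. The median log2 ratio was -1.66 for the 33 genes and 1.12 for all genes tested (0.50 for all genes at 10 CPM or more). In both MNK-3 libraries, 28 of the 33 lay below ILC2, a count not taken over all genes. With MNK-3 replicate 1 left out, the 33 genes stood at -1.80, all genes tested at 0.00 and all genes at 10 CPM or more at 0.27. The gap between the 33 genes and all genes tested thus narrowed from -2.78 to -1.80. The median of genes at 10 CPM or more moved less, from 0.50 to 0.27, so the narrowing depends on which genes serve for comparison. Leaving out replicate 2 gave -1.73, 1.64 and 0.56 in the same order. limma voom called 22 of the 33 lower in MNK-3 and none higher at a Benjamini-Hochberg adjusted p under 0.05, against 2.37% of all 25283 genes called lower and 0.902% called higher. At an unadjusted p under 0.05 it counted 28 of the 33, and the share of all genes at that cut was not taken. Aldoa fell by 3.00 on the log2 scale (SE 0.20, limma voom, Benjamini-Hochberg adjusted p = 7.96e-49), Ldha fell by 2.55 (SE 0.20, adjusted p = 2.03e-33), Slc2a3 fell by 6.42 (SE 0.86, adjusted p = 2.07e-11) and Bnip3 fell by 3.41 (SE 0.50, adjusted p = 1.61e-09), each lower in both MNK-3 libraries. Hk2 fell by 1.60 (SE 0.24, limma voom, Benjamini-Hochberg adjusted p = 3.14e-09) and Egln3 fell by 5.81 (SE 1.11, adjusted p = 1.52e-05), again in both.

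These calls rest on the scaling. With TMM factors 5 genes were called lower (Slc2a3, Aldoc, Slc16a3, Egln3, Bnip3), with median-of-ratios factors 3 (Slc2a3, Slc16a3, Egln3), and with factors from abundant genes 10 (Hk1, Hk2, Gpi1, Aldoa, Tpi1, Gapdh, Eno1, Pkm, Ldha, Hif1a), so no gene was called under all 4 scalings. The size counts moved less: 25 to 28 genes were 2-fold lower under all settings tried. The fit takes the spread of the single ILC2 library from the MNK-3 libraries. Of the 11 genes not called, Vegfa (MNK-3 1.68-fold and 1.38-fold lower), Pfkp (1.78-fold and 1.47-fold lower) and Bnip3l (1.19-fold lower and 1.19-fold higher) had readily measured levels near those of ILC2.

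Set against NK, the 33 genes were mixed. At 10 CPM or more, MNK-3 was at least 2-fold above NK for 13 and below it for 1 (Slc2a3), and 36.4% of all 11277 genes compared were higher and 10.9% lower. The median log2 ratio was 0.97 for the 33 genes, 0.88 for all genes tested and 0.58 for all genes at 10 CPM or more. Without MNK-3 replicate 1 it was 0.32 for the 33 genes, -0.26 for all genes tested and 0.31 for all genes at 10 CPM or more. Without replicate 2 it was 1.10, 1.38 and 0.66 in the same order. Whether the 33 genes lie above or below all genes tested thus depends on the library. Against genes at 10 CPM or more they were level without replicate 1 and above without replicate 2. Both MNK-3 libraries were above NK for 17 of the 33 genes, where 51.2% of all genes compared were. Both were below for 8, and NK lay between them for the other 8, counts not taken over all genes. limma voom called 1 gene higher (Pkm) and none lower, where 0.289% of all genes were called higher and 2.04% lower. At an unadjusted p under 0.05 it counted 7 of the 33, again without a share of all genes at that cut. The genes above NK in both MNK-3 libraries with the largest folds were Hk2 and Pfkm, followed by Vegfa (4.50-fold and 5.49-fold), Tpi1 (3.61-fold and 4.61-fold), Pfkfb4 (6.54-fold and 3.10-fold) and Pkm. Those below in both included Slc2a1, Hk1, Gpi1, Pfkp, Eno1 and Egln1, each within 1.5-fold of NK.

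**Figure D3:**
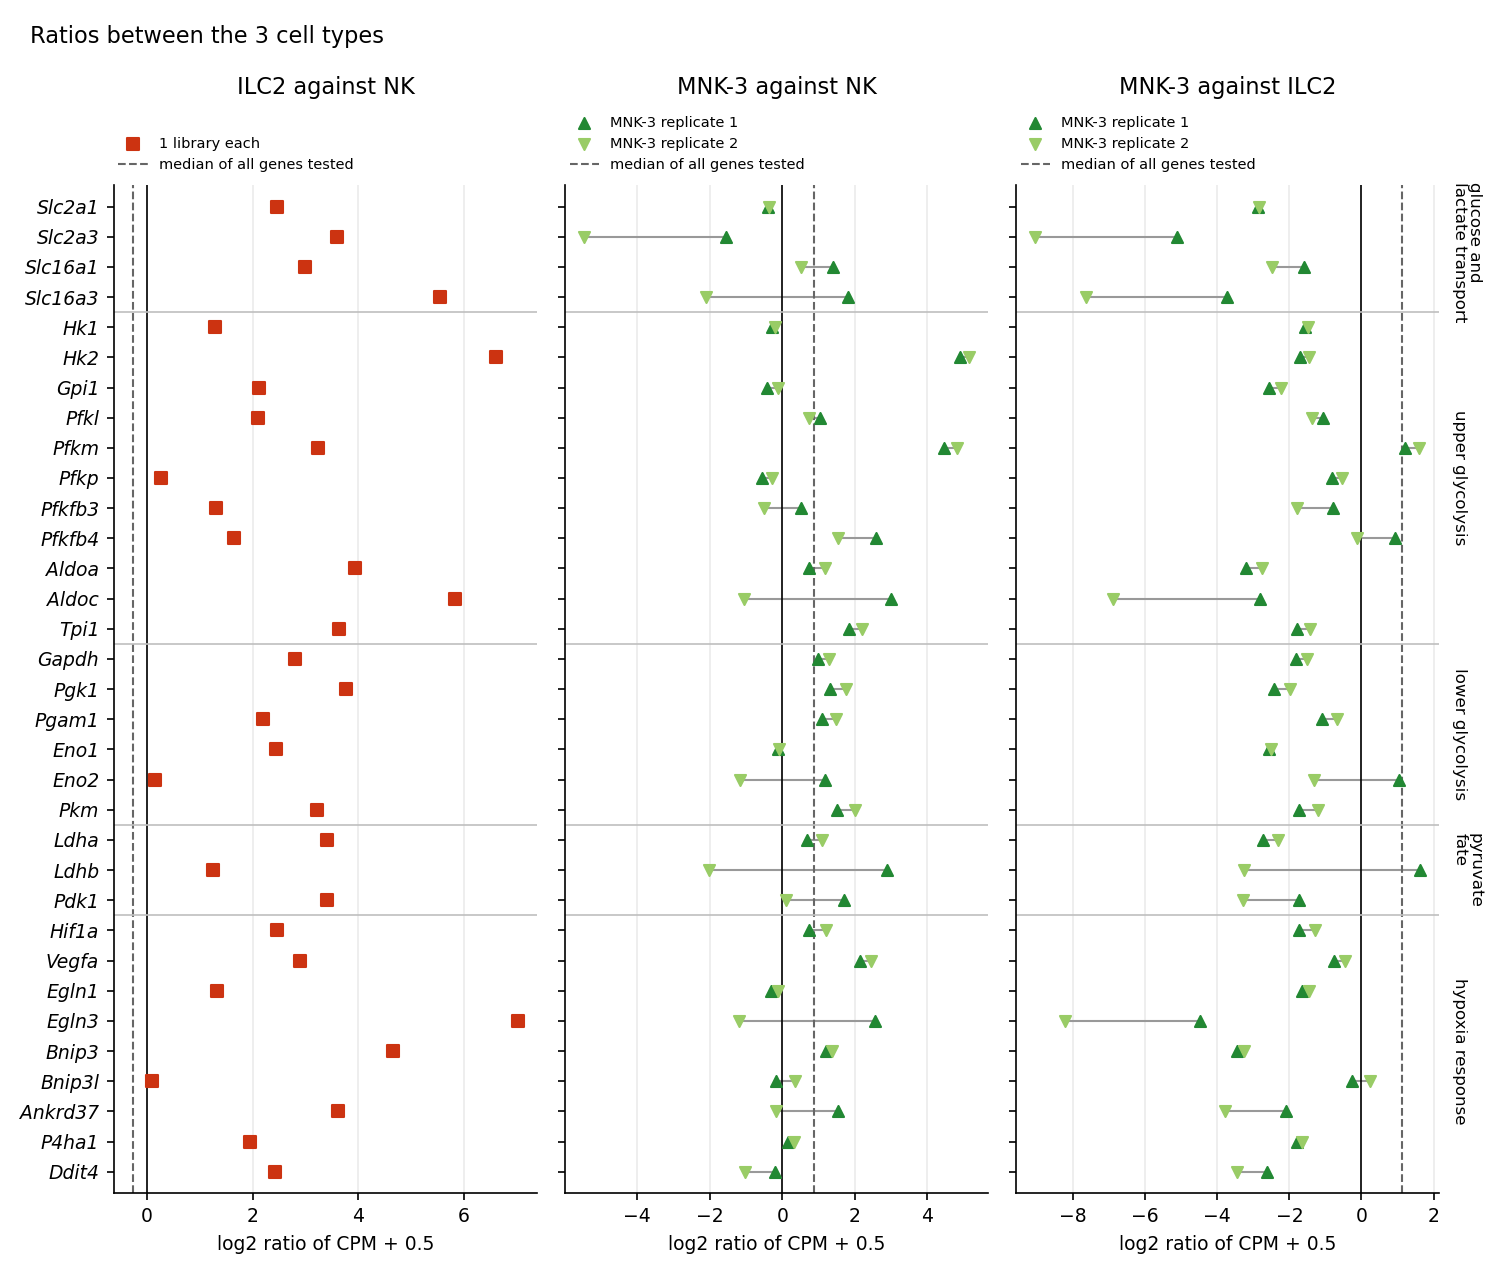
Log2 ratios of CPM + 0.5 for ILC2 against NK, MNK-3 against NK and MNK-3 against ILC2 (x, 1 panel each), 1 row per gene (y), with both MNK-3 libraries shown and joined by a line. All 33 genes lie right of the median of all genes tested (-0.26, dashed) in the first panel. They fall on either side of that median (0.88) in the second and mostly left of it (1.12) in the third.

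The 2 MNK-3 libraries were close for most of the 33 genes. On the CPM + 0.5 scale, 23 of the 33 genes were within 2-fold between the libraries. Another 10 were more than 2-fold higher in replicate 1, and none was more than 2-fold higher in replicate 2. The same counts were not taken over all genes. The 7 genes under 10 CPM in replicate 2 (Slc2a3, Slc16a3, Aldoc, Egln3, Ldhb, Eno2 and Ankrd37) were 3.28-fold to 29.7-fold higher in replicate 1. The other 3, Pdk1, Pfkfb3 and Pfkfb4, were above 10 CPM in both libraries, with Pdk1 at 47.6 and 15.6 CPM, while Bnip3, at 16.1 and 18.3 CPM, was close. The reads outside genes and the T cell, B cell, myeloid and ILC2 markers moved in the same direction, as given above. In replicate 1, 1203 coding genes with no read in the other 3 libraries had a median of 7.05 reads per kilobase of exon, with quartiles of 0.567 and 16.1. At that median density such reads would amount to 6.68% of the replicate 1 reads of Slc2a3, 5.40% of those of Slc16a3, 5.79% of Aldoc, 3.43% of Egln3 and 12.3% of Eno2. At shares this small, subtracting them could hardly turn a gene's direction, and it turned none. The cause of the differences between the 2 MNK-3 libraries was not tested.

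**Figure D4:**
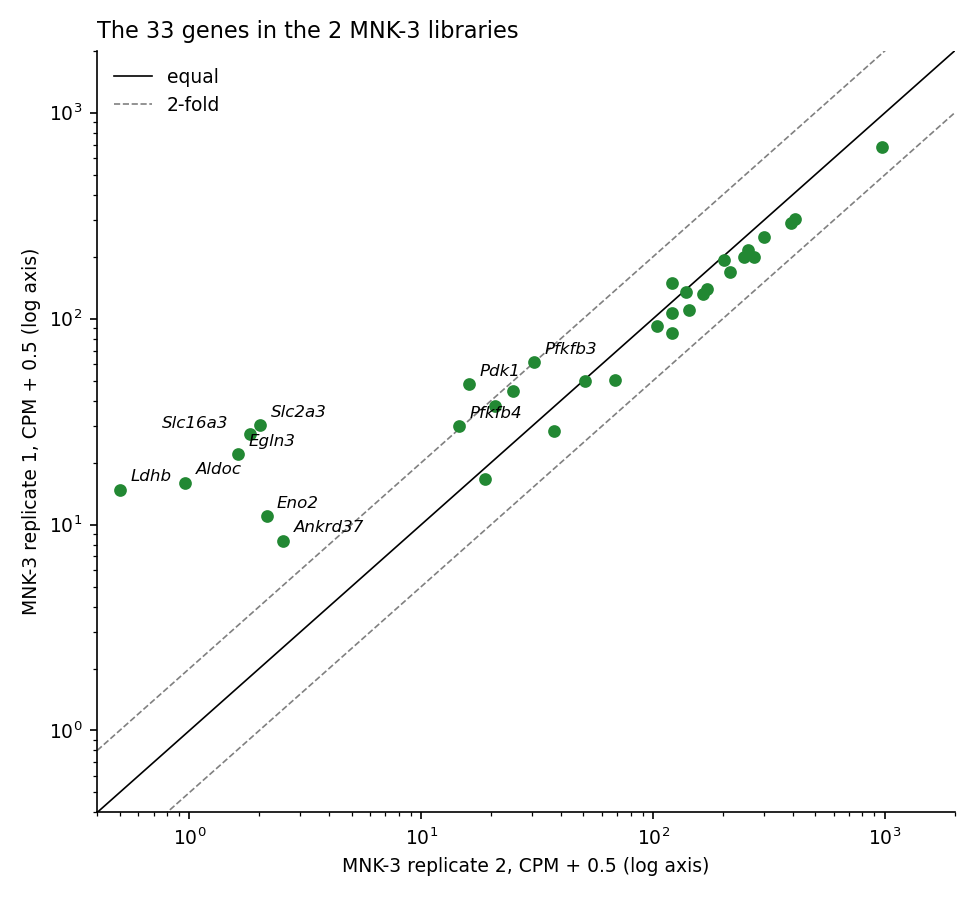
Level of the 33 genes in MNK-3 replicate 2 (x) and replicate 1 (y), as CPM + 0.5 on log axes, with lines at equality and at 2-fold. The 10 named genes lie above the upper line, and the genes above 100 CPM lie near equality.

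Related pathways did not all share the ILC2 pattern. Of 33 further glycolytic isoenzymes and side-step genes, 16 reached 10 CPM in NK or ILC2. Of these 16, 7 were at least 2-fold higher and 1 lower in ILC2 than in NK. Over all genes at that level, 22.1% were higher and 16.8% lower. The median log2 ratio over all 33, including those under 10 CPM, was -0.00. Pygl, liver glycogen phosphorylase, was at 12.1 CPM in NK, 165.2 in ILC2, and 11.1 and 0.857 in MNK-3. Eno3, the muscle enolase, was at 4.10, 4.84, 54.7 and 68.9 CPM, higher in both MNK-3 libraries than in NK or ILC2, as was Pfkm. Ldhd, a mitochondrial D-lactate dehydrogenase, was at 0.431, 0.753, 38.7 and 11.2 CPM.

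Of 14 genes of pyruvate entry into mitochondria, 13 reached 10 CPM in NK or ILC2. Of these, 3 were at least 2-fold higher and 2 lower in ILC2 than in NK, against 22.1% and 16.8% of all genes. The median log2 ratio over the 14 was 0.66. Pdp1, the phosphatase that activates pyruvate dehydrogenase, was lowest in ILC2, at 9.36 CPM, against 34.1 in NK and 130.3 and 158.5 in MNK-3. Pdk2, a kinase that acts in the opposite sense, was also lowest in ILC2, at 4.41 CPM against 25.2 in NK and 18.2 and 21.1 in MNK-3, unlike Pdk1. Pcx, pyruvate carboxylase, was at 5.39, 18.5, 54.8 and 46.3 CPM.

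All 10 genes of the pentose phosphate pathway, which branches off after hexokinase, reached 10 CPM. In ILC2 3 were at least 2-fold above NK and none lower (median log2 ratio 0.63), against 22.1% and 16.8% of all genes. Tkt, transketolase, was at 162.4 CPM in NK, 685.4 in ILC2, and 156.7 and 152.9 in MNK-3. Pgd and G6pdx, the dehydrogenases that make NADPH, were 2.63-fold and 2.18-fold higher in ILC2 than in NK.

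Of 14 HIF subunit and oxygen-sensing genes, 12 reached 10 CPM in NK or ILC2. Of these, 3 were at least 2-fold higher and 2 lower in ILC2 than in NK, against 22.1% and 16.8% of all genes. The median log2 ratio over the 14 was 0.22. Between MNK-3 and NK, 5 of the 13 at 10 CPM were higher in MNK-3 and none lower, where 36.4% of all genes compared were higher. limma voom called none of the 14 against NK, and none had an unadjusted p under 0.05. Epas1, which encodes HIF-2 alpha, was at 6.90 CPM in NK, 57.9 in ILC2, and 144.5 and 204.5 in MNK-3, above NK and ILC2 in both libraries. Its call against ILC2 (limma voom log2 fold 1.53, SE 0.48, Benjamini-Hochberg adjusted p = 0.0429) was lost under all 5 other settings of the fit. Arnt2, an alternative partner of the HIF alpha subunits, was at 1.29 CPM in NK, 0.968 in ILC2, and 83.6 and 111.2 in MNK-3. Siah2, a ubiquitin ligase that acts on the prolyl hydroxylases, was at 25.4, 132.3, 25.2 and 36.4 CPM.

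Of 31 other hypoxia-response genes, 26 reached 10 CPM in NK or ILC2. Of these, 15 were at least 2-fold higher and 1 lower in ILC2 than in NK, against 22.1% and 16.8% of all genes. The median log2 ratio over the 31 was 2.02. Ero1l, the oxidase of disulfide formation in the endoplasmic reticulum, was at 15.7 CPM in NK, 2566.1 in ILC2, and 82.0 and 106.5 in MNK-3, a 163.0-fold difference between ILC2 and NK. Tmem45a had no reads in NK and was at 40.1 CPM in ILC2 and 13.0 and 10.3 in MNK-3. Rora, a nuclear receptor of ILC identity, was at 36.2, 496.9, 1292.5 and 1840.8 CPM, so its order does not follow that of the glycolytic genes.

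Of 23 growth and nutrient regulators, 20 reached 10 CPM in NK or ILC2. Of these, 2 were at least 2-fold higher and 3 lower in ILC2 than in NK, against 22.1% and 16.8% of all genes. The median log2 ratio over the 23 was -0.06. Txnip, which restrains glucose uptake and is lowered in growing cells, ran opposite to most of the 33 genes against NK, at 746.5 CPM in NK, 135.7 in ILC2, and 15.6 and 18.3 in MNK-3. Against NK it fell by 5.51 on the log2 scale in MNK-3 (SE 0.47, limma voom, Benjamini-Hochberg adjusted p = 2.36e-28, both libraries lower), a call lost with abundant-gene scaling, and against ILC2 it fell by 3.05 (SE 0.52, adjusted p = 5.98e-07), a call lost with all 3 other scalings. Irf4, a factor induced by antigen-receptor and cytokine signals, was at 2.16 CPM in NK, 136.9 in ILC2, with 36.1 in replicate 1 and 0.0659 in replicate 2 of MNK-3. Mycn, a MYC-family transcription factor, was at 2.37, 2.26, 23.5 and 23.6 CPM.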

How the data were processed

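Total RNA of 4 mouse libraries (1 NK, 1 ILC2, 2 MNK-3) was sequenced as pairs of 38 bp reads after SMARTer Stranded Total RNA-seq v2 Pico preparation, per the labels' protocols. The authors aligned reads with STAR 2.7.8a and counted them per gene with HTSeq on mm10/GRCm38, per the submitters' processing notes. The gene set, strand setting and treatment of reads with several matches are not given in the sources used here. The deposited values, in a unit recorded as other because of the tables' layout, are whole-number read counts, not normalized. NK and ILC2 were counted over 53465 genes and MNK-3 over 31053, and the 30731 shared genes were used. Reads naming no gene were left out: 49.3% (NK), 25.9% (ILC2), 76.5% and 26.6% (MNK-3).

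CPM were taken over the shared-gene totals. Sizes are log2 ratios of CPM + 0.5, with MNK-3 as the mean of its 2 libraries, and count past 2-fold where the higher group reached 10 CPM. Tests were two-sided in limma voom (limma 3.58.1, R 4.3.3), all 4 libraries in 1 fit of 3 groups, over 25283 genes kept by a filter on low counts (10 reads, adjusted for depth, and 15 in total), with Benjamini-Hochberg adjustment over all of them. The MNK-3 pair gives the only spread, pooled over genes, so p-values measure the spread between those 2 libraries. Members and lists were chosen with earlier results of these data known. All 33 members are named, and of each other list the 3 genes with the largest ratio of highest to lowest group mean among those of 10 CPM or more. Exon lengths and coordinates are from GENCODE M21 and promoters from RefSeq GRCm38.p6. Aldoa, with 2 Ensembl identifiers, was placed by overlap with the RefSeq gene. Alternatives were other scalings, pseudocounts, filters, denominators, gene lengths and leaving out each MNK-3 library. Subtracting a background density from MNK-3 replicate 1 and using principal-transcript lengths were added after seeing the data.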

Additional observations from a re-analysis of the deposited data

How the results depend on the processing

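With NK and ILC2 at 1 library each, no setting can supply their spread, and counting intervals are the only error of their ratio. In ILC2 against NK, 29 or 30 genes were at least 2-fold higher and none lower under all settings, with the median log2 ratio at 3.15 with TMM factors and 3.16 with median-of-ratios factors (2.81 as reported). In MNK-3 against NK, leaving out a MNK-3 library in turn gave medians of 0.32 to 1.10 and 1 to 2 genes at least 2-fold lower, and the log2 ratio of Egln3, 1.65 as reported, ran from -1.20 without replicate 1 to 2.55 without replicate 2. The call of Pkm was lost, leaving 0 genes called higher, with TMM, median-of-ratios and abundant-gene factors. There the limma voom fit counted 4, 3 and 0 of the 33 genes at an unadjusted p under 0.05, a cut at which all genes were not counted. In MNK-3 against ILC2, the median was -2.00 with TMM factors, -2.21 with median-of-ratios factors and -1.80 to -1.73 with a MNK-3 library left out, and genes at least 2-fold higher numbered 0 with median-of-ratios factors and 1 to 3 with a library left out. Genes called lower there numbered 5 with TMM, 3 with median-of-ratios and 10 with abundant-gene factors, against 22 as reported and 22 or 23 without the filter or with 3 libraries in the fit. The cause was not tested. The gene leading its set was the same in 36 of 40 sets and libraries by reads alone and in 33 of 40 per principal-transcript length. No paired analysis was possible because the groups share no replicate pairs. By depth, 3 reads stand for 0.647 CPM in NK, 0.323 in ILC2, and 0.117 and 0.198 in MNK-3.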
